A study of Mus musculus with 8 samples.

Results

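The collagen cross-linking and hydroxylating enzymes of the mouse limbus and cornea were described from 10 genes, found by matching their symbols to the gene names of the deposited table: the lysyl oxidases Lox, Loxl1, Loxl2, Loxl3 and Loxl4, the lysyl hydroxylases Plod1, Plod2 and Plod3, and the prolyl 4-hydroxylase alpha subunits P4ha1 and P4ha2. All 10 had reads, out of 17442 named genes that did. The tissues were dissected from wild type C57BL/6J mice at 8 weeks of age and pooled by tissue before RNA was extracted, so differences between animals cannot be seen. The corneal button is the clear central cornea, and the limbal rim is the ring that joins it to the sclera and conjunctiva. The labels number 4 samples per tissue, but the table is built from 1 cornea library and 1 limbus library, so there are no replicates, no test was made, and every interval given here covers counting error only. The table gives a mean over both libraries, from which the reads of each were worked out. Of the 10 genes, Plod2 alone has a mean that allows a single pair of read numbers, and for the other 9 the pair was chosen with the authors' fold change as a guide.

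Collagen chains are modified in the endoplasmic reticulum before they fold. Prolyl 4-hydroxylases make the hydroxyproline that keeps the collagen helix stable at body temperature, and lysyl hydroxylases make the hydroxylysine that carries sugars and determines which kind of cross-link can form. After secretion, the copper-dependent lysyl oxidases turn lysine and hydroxylysine side chains into aldehydes, which then bond neighboring collagen and elastin molecules. In the cornea these cross-links hold together the thin, evenly spaced fibrils that keep the stroma clear and firm.

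Reads on named genes summed to 26104317 for the cornea and 21182025 for the limbus. Normalized reads are reads divided by a size factor for each library, 1.03 for the cornea and 0.967 for the limbus, and ratios are given as limbus over cornea on the log2 scale with exact 95% intervals. Which library is which follows the tissues that the study's text assigns to its genes, and the markers of each tissue lay on the side of their tissue: all 5 genes of the corneal epithelium list, led by the corneal keratin Krt12, were higher in the cornea, and 3 conjunctival keratins, Krt13, Krt4 and Krt19, were higher in the limbus, while the goblet cell mucin Muc5ac had 1 read on each side. The summed conjunctival genes were 37824 in the cornea and 230499 in the limbus. Markers of other tissues were also higher in the limbal rim. Summed normalized reads of 5 skeletal muscle genes were 77.4 in the cornea and 9975 in the limbus, those of 5 smooth muscle and pericyte genes 79.3 and 2231, those of 5 blood vessel endothelium genes 232 and 2503, those of 5 melanocyte genes 306 and 1644, and those of 5 macrophage and leukocyte genes 723 and 2301, among which Adgre1 was listed at 0. The summed keratocyte genes were 57033 and 59548, and the summed corneal endothelium genes 14468 and 22417. The summed fibroblast and sclera genes, Col1a1 among them, were 22743 and 51528, but singly these genes were split. Of the 5 with reads above 3 on both sides, 2 were limbal beyond counting error and 3 corneal. Log2 ratios were 1.25 for Col1a1 and 4.25 for Fmod, against −0.45 for Pdgfra, −0.58 for Dpt and −0.50 for Angptl7. Pi16 had 1 corneal and 604 limbal reads. In bulk tissue, a change in the number of cells of a type and a change in RNA per cell cannot be told apart, and the part these tissues have in the values below was not tested.

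Beyond counting error, 8 of the 10 enzymes were higher in the limbus and 1 was higher in the cornea, and 1 did not differ. By the same measure, over the 13862 genes with reads above 3 on both sides, 33.2% were limbal and 40.6% corneal, shares that become 45.1% and 29.7% when the libraries are scaled to total reads, with 9 enzymes limbal and 1 corneal. At least 2-fold differences were found for 6 of the 10, all towards the limbus, while of the 15572 genes that had more than 3 reads in either library, 20.8% reached 2-fold towards the limbus and 8.84% towards the cornea. The enzymes had a median log2 ratio of 1.15, and all 15572 genes one of 0.01. The order from the most limbal to the most corneal was Loxl4, Loxl1, Loxl3, P4ha2, Loxl2, Plod2, Plod3, Lox, P4ha1 and Plod1. Of the 9 pairs of neighbors in that order, 4 had ratios that differed beyond counting error: Loxl4 from Loxl1, Loxl3 from P4ha2, Lox from P4ha1, and P4ha1 from Plod1. The other 5 neighbors could not be told apart at this depth.

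**Figure D1:**
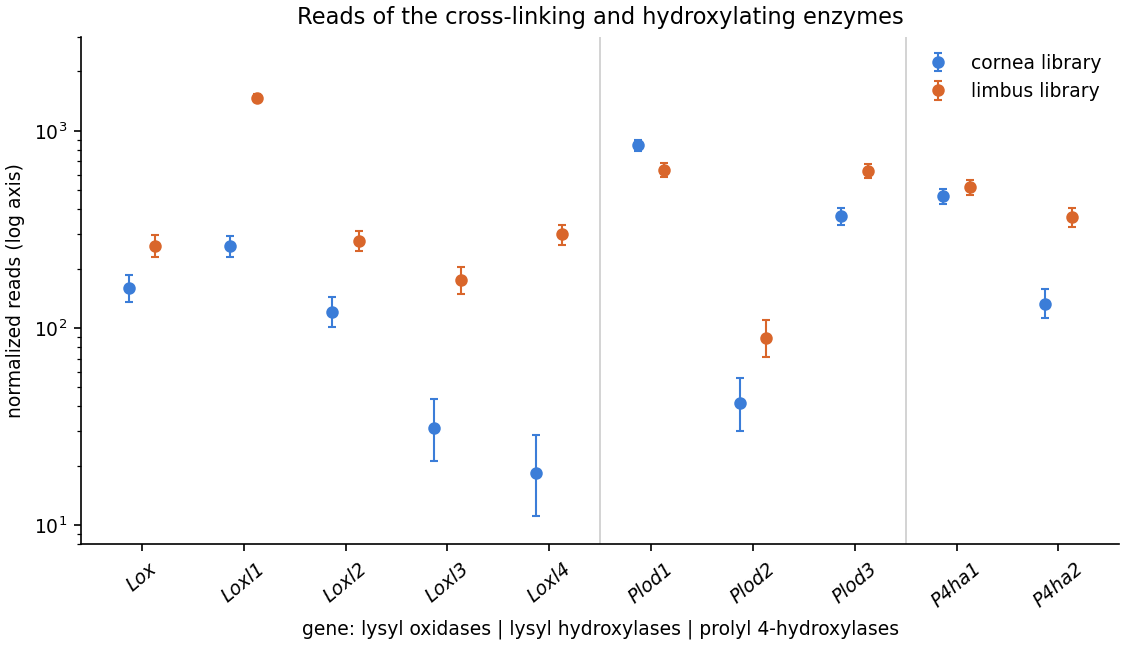
Normalized reads of the 10 enzymes (vertical log axis) in the cornea library (blue) and the limbus library (orange), with exact 95% Poisson intervals and vertical lines between the 3 enzyme families. The limbus point lies above the cornea point for every gene but Plod1, and the intervals of P4ha1 overlap.

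The lysyl oxidases were the most limbal family. Loxl4 (chr19:42593982-42612813, minus strand), one of the lysyl oxidases whose secreted protein carries scavenger receptor domains, had 19 corneal and 288 limbal reads. After normalization these were 18.4 and 298, a 16.2-fold higher level in the limbus, with a log2 ratio of 4.02 (interval 3.35 to 4.77). This ratio was above that of 98.8% of the 13862 genes.

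Loxl1 (chr9:58287738-58313186, minus strand), the lysyl oxidase known for renewing elastic fibers, had the most reads of the family in both tissues, 269 corneal and 1420 limbal ones. Its normalized reads of 260 and 1468 gave a 5.64-fold higher level in the limbus, with a log2 ratio of 2.50 (2.31 to 2.69), above 94.5% of genes. Loxl3 (chr6:83034173-83052562, plus strand), another lysyl oxidase with scavenger receptor domains, had 32 and 169 reads, which were 31.0 and 175 after normalization. Its log2 ratio of 2.50 (1.94 to 3.09) was the same as that of Loxl1 to within counting error, with a difference of 0.00 (−0.63 to 0.59), but from far fewer reads. Loxl3 overlaps the protein-coding gene Htra2 on the opposite strand over 1297 bases. Htra2 itself, with 559 and 459 reads, had a ratio of −0.19 (−0.37 to −0.01).

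Loxl2 (chr14:69609068-69695834, plus strand), which acts on basement membrane and fibrillar collagens, had 125 corneal and 268 limbal reads. It was 2.29-fold higher in the limbus, with a log2 ratio of 1.20 (0.88 to 1.51). Lox (chr18:52516067-52529867, minus strand), the founding lysyl oxidase of collagen and elastin, had 165 and 253 reads and was 1.64-fold higher in the limbus, with a log2 ratio of 0.71 (0.42 to 1.0). It had the smallest difference of the 5 lysyl oxidases. Among the 10 pairs within this family, 9 had ratios that differed beyond counting error, all but Loxl1 against Loxl3. The closest of these 9 was Loxl2 against Lox, with a difference of 0.48 (0.05 to 0.92), and the widest was Loxl4 against Lox, with 3.31 (2.56 to 4.11).

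**Figure D2:**
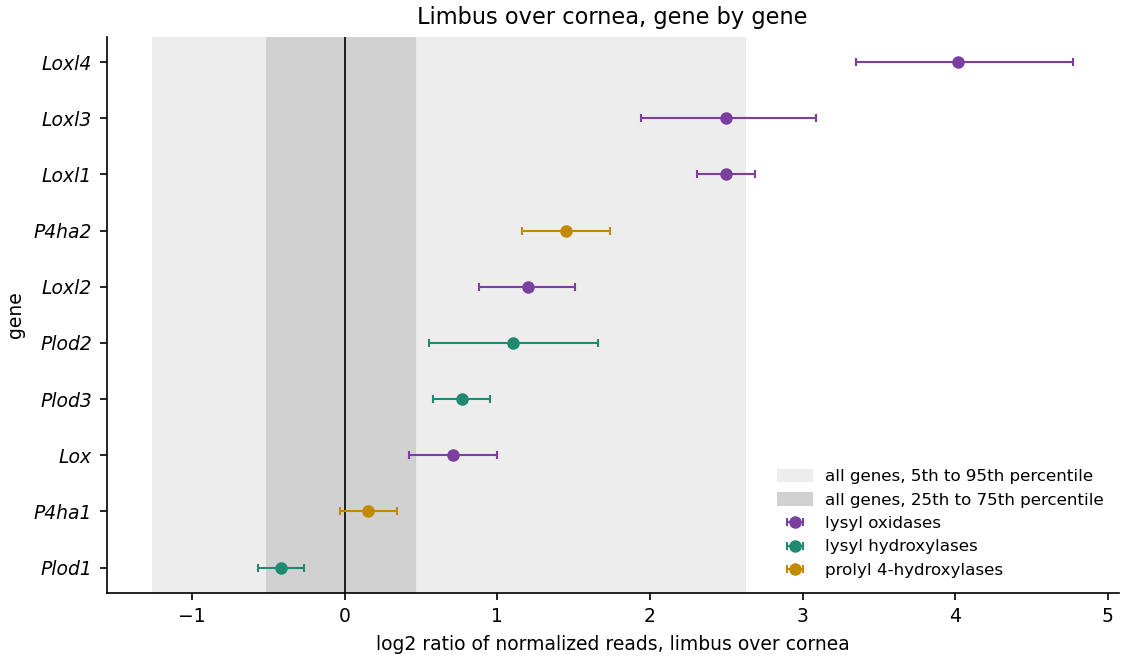
Log2 ratio of normalized reads, limbus over cornea, for each enzyme (points, colored by family) with exact 95% intervals, over bands that hold the 5th to 95th and the 25th to 75th percentiles of the 13862 genes with over 3 reads on each side. Loxl4 lies above the 95th percentile, at 4.02 against 2.62, and Plod1 is the only enzyme whose interval lies below 0.

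Summed over the 5 genes, lysyl oxidase reads numbered 610 on the corneal and 2398 on the limbal side, a 4.20-fold higher normalized level in the limbus (log2 ratio 2.07, interval 1.94 to 2.20). The family also had a different make-up on each side. Per kilobase of exon, which allows genes of different length to be compared, Loxl1 made up 54.1% of the family in the cornea (51.1 to 57.1) and 67.5% in the limbus (66.3 to 68.6). Intervals of shares let the reads of the named gene alone vary, so they are narrower than the full counting error. The share of Lox was 22.9% in the cornea against 8.30% in the limbus, and that of Loxl2 was 15.3% and 7.77%, although both had more reads in the limbus. The share of Loxl4 was 2.99% (1.82 to 4.60) in the cornea, the lowest of the 5, and 10.7% (9.62 to 11.9) in the limbus, where it came after Loxl1. Loxl3 made up 4.61% (3.20 to 6.39) and 5.75% (4.96 to 6.63), which overlap. In level per kilobase, the corneal order was therefore Loxl1, Lox, Loxl2, Loxl3 and Loxl4, and the limbal order Loxl1, Loxl4, Lox, Loxl2 and Loxl3, with Lox at 54.7 normalized reads per kilobase (48.2 to 61.9) and Loxl2 at 51.3 (45.3 to 57.8) within counting error of each other.

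The lysyl hydroxylases went in opposite directions. Plod1 (chr4:147909753-147936767, minus strand), the isozyme that mainly hydroxylates lysines within the helix, had 873 corneal and 610 limbal reads. Its normalized reads of 845 and 631 made it 1.34-fold higher in the cornea, with a log2 ratio of −0.42 (−0.57 to −0.27). It was the only enzyme of the 10 higher in the cornea, and 29.4% of genes had a lower ratio. Plod2 (chr9:92542223-92608428, plus strand), which hydroxylates the telopeptide lysines at the ends of the chains, had 43 and 86 reads and was 2.14-fold higher in the limbus, with a log2 ratio of 1.10 (0.55 to 1.66). Plod3 (chr5:136987019-136996648, plus strand), which can also transfer the sugars onto hydroxylysine, had 381 and 606 reads and was 1.70-fold higher in the limbus, with a log2 ratio of 0.77 (0.58 to 0.95).

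The ratio of Plod3 was above that of Plod1 by 1.19 (0.94 to 1.43) and that of Plod2 above that of Plod1 by 1.52 (0.95 to 2.10), while Plod2 and Plod3 could not be told apart, with a difference of 0.33 (−0.25 to 0.93). Differences such as these compare genes within the same libraries and do not depend on how the libraries are scaled to each other. Plod3 shares 1003 bases with the protein-coding gene Znhit1 on the opposite strand, for which 668 and 666 reads gave a log2 ratio of 0.09 (−0.07 to 0.25). Summed over the family, reads were nearly the same in number, 1297 corneal against 1302 limbal, and the log2 ratio of 0.10 (−0.01 to 0.21) did not differ from 0 beyond counting error. Scaled to total reads it was 0.31 and with trimmed-mean scaling 0.12, both past that error. Per kilobase, Plod1 led in the cornea with 58.3% of the family (56.7 to 59.9) against 38.1% for Plod3 (35.7 to 40.5), and Plod3 led in the limbus with 55.8% (53.8 to 57.8) against 37.5% for Plod1 (35.7 to 39.4). Plod2 stayed the least abundant, with 3.60% (2.63 to 4.79) and 6.64% (5.38 to 8.07).

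The prolyl 4-hydroxylase subunits also parted. P4ha1 (chr10:59323296-59373304, plus strand), the alpha subunit of the main form of the enzyme in most cells, had 481 corneal and 501 limbal reads, which became 465 and 518 once normalized. Its log2 ratio of 0.15 (−0.03 to 0.34) did not differ from 0 beyond counting error, but scaled to total reads, which raises every log2 ratio by 0.21 and the share above 0 of the 13862 genes from 46.6% to 58.9%, it was 0.36 (0.18 to 0.54) and past that error. P4ha2 (chr11:54100095-54131665, plus strand), the alternative catalytic alpha subunit, had 138 and 352 reads and was 2.73-fold higher in the limbus, with a log2 ratio of 1.45 (1.16 to 1.74). The difference between the ratios of P4ha2 and P4ha1 was 1.29 (0.95 to 1.64).

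Per kilobase of exon, P4ha1 was the more abundant subunit on both sides. It made up 84.1% (82.8 to 85.3) of the alpha subunit reads in the cornea and 68.3% (66.4 to 70.2) in the limbus, and P4ha2 the remaining 15.9% and 31.7%. With the longest transcript of each gene in place of all its exons, the shares of P4ha2 were 27.5% (24.2 to 30.9) and 48.1% (45.5 to 50.8), and the limbal lead of P4ha1, at 51.9% (49.6 to 54.0), was then within counting error. The summed alpha subunits, with 619 and 853 reads, had a log2 ratio of 0.56 (0.41 to 0.71). The other alpha subunit gene, P4ha3, had 0 corneal and 22 limbal reads. P4hb, protein disulfide isomerase, which is the beta subunit of the enzyme and also works free of it, had 12729 and 14603 reads, with a log2 ratio of 0.29 (0.26 to 0.33). Per kilobase there were 32.0 beta subunit reads for each P4ha1 or P4ha2 read in the cornea, against 28.6 in the limbus.

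**Figure D3:**
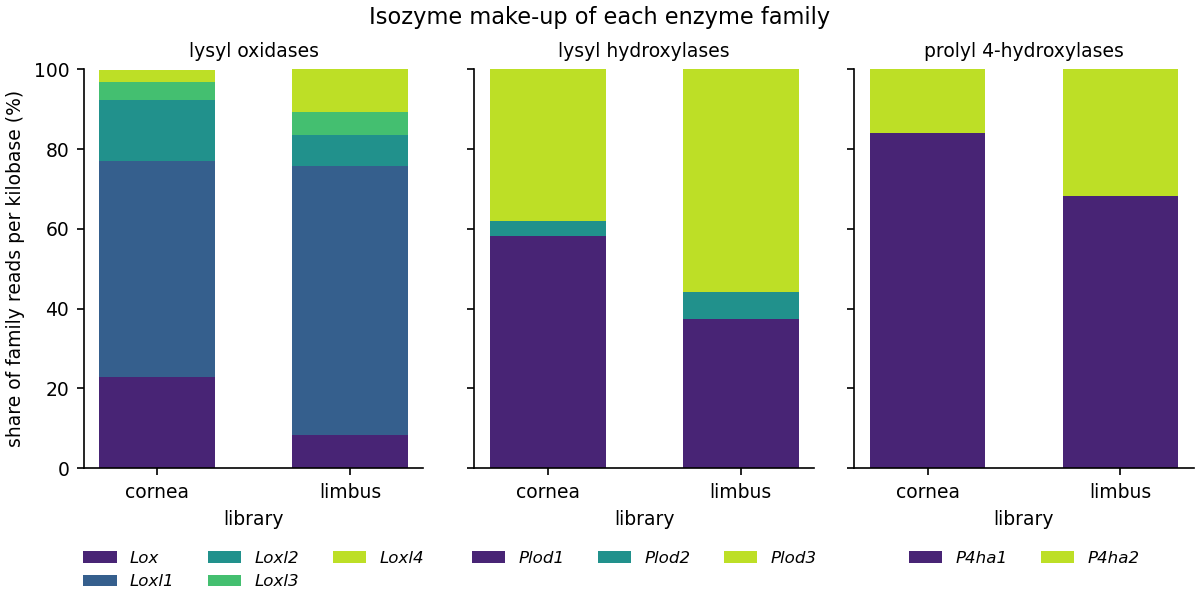
Share of each gene in its family's reads per kilobase of exon (vertical axis, percent) in the cornea and limbus libraries, as stacked bars that add up to the whole family. Loxl4 takes 2.99% of the lysyl oxidases in the cornea and 10.7% in the limbus, Plod1 goes from 58.3% to 37.5%, and P4ha2 from 15.9% to 31.7%.

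Promoters are shown here for the hydroxylases that differed within their family and have a promoter in the reference used here. Plod2, which also differed from Plod1, has none there. The reason for showing them is that some hydroxylase genes, P4ha1 and Plod1 among them, are known targets of the hypoxia-inducible factors. These factors bind DNA at the core ACGTG or GCGTG. Each run is 300 bases of GRCm38.p6 from RefSeq, written in the direction of the gene, 250 bases before the start of transcription and 50 after. Capitals mark ACGTG and GCGTG on the printed strand, and CACGT and CACGC, which are the same motifs read on the opposite strand. No marked stretches overlap. The coordinates are chr4:147936727-147937026 (minus strand) for Plod1, chr5:136986769-136987068 (plus) for Plod3, chr10:59323046-59323345 (plus) for P4ha1 and chr11:54100674-54100973 (plus) for P4ha2. The RefSeq start of P4ha2 lies 829 bases downstream of the start of the gene in GENCODE given above, so its window lies within that longer gene.
Plod1: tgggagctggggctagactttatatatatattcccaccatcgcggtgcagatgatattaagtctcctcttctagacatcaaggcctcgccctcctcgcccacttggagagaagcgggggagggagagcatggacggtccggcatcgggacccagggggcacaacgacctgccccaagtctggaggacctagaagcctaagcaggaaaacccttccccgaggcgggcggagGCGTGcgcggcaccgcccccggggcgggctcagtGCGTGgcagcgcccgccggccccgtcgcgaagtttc
Plod3: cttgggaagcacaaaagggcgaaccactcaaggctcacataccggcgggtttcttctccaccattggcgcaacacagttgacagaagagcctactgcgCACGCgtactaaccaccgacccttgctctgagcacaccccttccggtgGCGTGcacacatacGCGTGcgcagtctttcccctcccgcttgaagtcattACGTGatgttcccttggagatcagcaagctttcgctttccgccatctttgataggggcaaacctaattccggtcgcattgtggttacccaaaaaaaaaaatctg
P4ha1: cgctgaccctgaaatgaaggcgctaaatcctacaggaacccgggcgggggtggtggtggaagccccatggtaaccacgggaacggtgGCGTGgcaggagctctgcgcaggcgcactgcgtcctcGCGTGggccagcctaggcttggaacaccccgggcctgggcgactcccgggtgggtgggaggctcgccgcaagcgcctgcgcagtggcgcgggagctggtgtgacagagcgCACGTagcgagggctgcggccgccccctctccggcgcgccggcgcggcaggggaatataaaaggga
P4ha2: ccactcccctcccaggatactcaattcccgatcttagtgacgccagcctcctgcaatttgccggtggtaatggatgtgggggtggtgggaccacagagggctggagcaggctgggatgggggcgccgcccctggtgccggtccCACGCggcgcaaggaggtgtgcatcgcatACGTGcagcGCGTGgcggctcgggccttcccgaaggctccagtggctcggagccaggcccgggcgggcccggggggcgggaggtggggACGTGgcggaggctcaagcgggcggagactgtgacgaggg
The windows of P4ha2 and Plod3 hold 4 matches each, that of P4ha1 3 and that of Plod1 2, and that of Loxl4, the only other enzyme with a promoter in the reference used here, 1. ACGTG is found in P4ha2, 78 bases before the start and at base 11 after it, in Plod3, 54 bases before the start, and in P4ha1, 16 bases before it on the opposite strand, while the matches of Plod1 and Loxl4 are GCGTG. Of 32851 mouse promoters of the same length, 43.8% hold at least 1 match, 20.6% at least 2, 8.93% at least 3 and 3.86% at least 4. These promoters were not matched for base content, and both motifs hold the pair CG. G and C made up 64.3% of the window of Plod1, 53.3% for Plod3 and 70.3% for both P4ha1 and P4ha2. Whether the hypoxia-inducible factors act on these genes here was not tested. Among 12 other genes known to respond to hypoxia, 3 were higher in the limbus, 7 higher in the cornea and 2 within counting error, beside 33.2% and 40.6% of all genes, and the median log2 ratio was −0.18. Scaled to total reads, 45.1% of all genes were limbal and 29.7% corneal. Of these 12 genes, 3 were then limbal, 5 corneal and 4 within counting error. They ran from Vegfa, the vascular growth factor, with 193 and 510 reads and a ratio of 1.50 (1.26 to 1.74), to Egln3, an oxygen-sensing prolyl hydroxylase of the factors themselves, with 31190 and 12283 reads and a ratio of −1.25 (−1.28 to −1.22).

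Collagen genes, the substrates of these enzymes, were themselves mostly higher in the limbus. Of the 11 listed, 10 had more than 3 reads on both sides. Beyond counting error 7 of these were limbal, 1 corneal and 2 neither, beside 33.2% limbal and 40.6% corneal among all genes. Scaled to total reads, 8 were limbal and 1 corneal, beside 45.1% and 29.7% of all genes. The median log2 ratio over the list was 1.44. Col3a1, a fibrillar collagen of most connective tissues but scarce in the healthy corneal stroma, was the most limbal, its 106 and 3124 reads giving a log2 ratio of 4.98 (4.70 to 5.27). The basement membrane chains Col4a2 and Col4a1 came next with 2.92 and 2.86. The fibril-regulating chains Col5a2, at −0.37 (−0.46 to −0.29), Col11a1, at −0.29 (−0.61 to 0.03), and Col5a1, at 0.09 (−0.01 to 0.18), were at the other end. Summed collagen reads were 34053 for the cornea and 67840 for the limbus, 2.13-fold higher in the limbus after normalization (log2 ratio 1.09, interval 1.07 to 1.11). Col1a1, Col1a2 and Col3a1 gave 83.7% of them in the cornea and 88.2% in the limbus.

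Set against these collagen reads, the enzymes fell on both sides. Loxl4 had 0.558 reads per 1000 collagen reads in the cornea (0.336 to 0.871) and 4.25 in the limbus (3.77 to 4.76), and stayed 7.61-fold higher in the limbus. Loxl1, with 7.90 and 20.9 reads per 1000, and Loxl3, with 0.940 and 2.49, both stayed 2.65-fold higher, and P4ha2, with 4.05 and 5.19, stayed 1.28-fold higher. Loxl2 and Plod2, both more than 2-fold higher in the limbus by normalized reads, did not differ from the collagens beyond counting error, with log2 ratios per collagen read of 0.11 (−0.21 to 0.42) and 0.01 (−0.54 to 0.57). Set against the 5 keratocyte genes instead, both were past counting error, at 1.13 (0.82 to 1.45) and 1.03 (0.49 to 1.60).

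The other 4 enzymes were lower per collagen read in the limbus than in the cornea. Plod1 had 25.6 corneal and 8.99 limbal reads per 1000 collagen reads, 2.85-fold higher in the cornea, and P4ha1 had 14.1 and 7.39, 1.91-fold higher in the cornea. Lox, with 4.85 and 3.73, and Plod3, with 11.2 and 8.93, were 1.30-fold and 1.25-fold higher in the cornea per collagen read, although both were higher in the limbus by normalized reads. For the families, lysyl oxidase reads per 1000 collagen reads were 17.9 for the cornea and 35.3 for the limbus, lysyl hydroxylase reads 38.1 and 19.2, and prolyl 4-hydroxylase alpha subunit reads 18.2 and 12.6. These values turn on the reads chosen for comparison: the 5 keratocyte genes had a log2 ratio of 0.06 in sum, though singly they ran from −2.99 for Kera to 3.49 for Ptgds, and against them Lox, at 0.65 (0.36 to 0.94), Plod3, at 0.70 (0.52 to 0.89), and the summed prolyl 4-hydroxylases, at 0.50 (0.35 to 0.65), were higher in the limbus. P4ha1, at 0.09 (−0.09 to 0.28), and the summed lysyl hydroxylases, at 0.04 (−0.07 to 0.15), then did not differ beyond counting error.

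**Figure D4:**
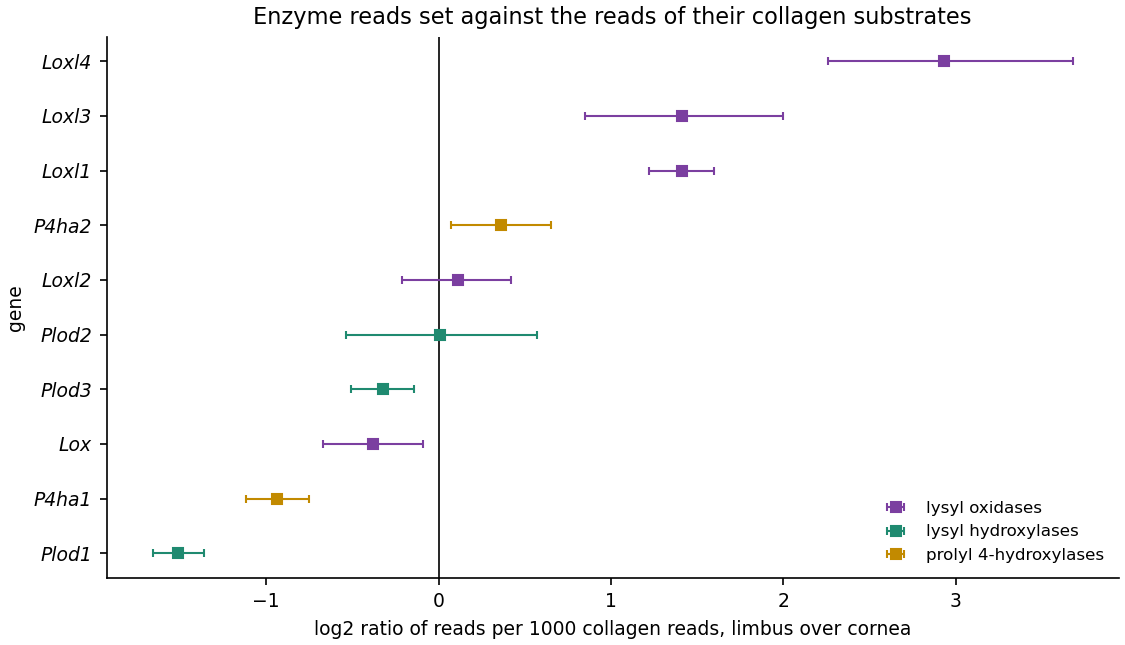
Log2 ratio, limbus over cornea, of each enzyme's reads per 1000 reads of the 11 collagen genes (horizontal axis), with exact 95% intervals, colored by family. Loxl4, Loxl1, Loxl3 and P4ha2 lie above 0, Loxl2 and Plod2 have intervals that span it, and Lox, Plod3, P4ha1 and Plod1 lie below 0.

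Other genes of collagen modification, export and processing, where reads were above 3 on both sides, had log2 ratios from −1.79 to 3.74. The enzymes ran from −0.42 to 4.02. Of 35 such partner genes, 30 had more than 3 reads on both sides. Beyond counting error 18 of these were limbal, 9 corneal and 3 neither, beside 33.2% limbal and 40.6% corneal among all genes. Scaled to total reads, 19 were limbal and 6 corneal, beside 45.1% and 29.7% of all genes. At least 2-fold differences were found for 14 of the 35 towards the limbus and 2 towards the cornea. Among all genes these shares were 20.8% and 8.84%. The median log2 ratio of the partner genes was 0.87. Among the 8 genes that remove the procollagen ends, 5 had enough reads, of which 4 were higher in the limbus and 1 was within counting error, beside 33.2% limbal among all genes. Tll2, a protease of the same group named after its values were seen, had 25 corneal and 2 limbal reads. Pcolce, which speeds up removal of the carboxyl end, gave 1367 and 5453 reads, for a log2 ratio of 2.09 (2.01 to 2.18), and Bmp1, the protease that also frees active lysyl oxidase from its precursor, had 533 and 933 reads and a ratio of 0.90 (0.75 to 1.06).

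The partner genes nearest to the lysyl oxidases in function did not move as 1 group. Of the 6 scaffold, substrate and copper genes with enough reads, 3 were limbal and 3 corneal, beside 33.2% and 40.6% of all genes. Fn1, named here after its values were seen, was corneal at −0.24 (−0.29 to −0.19). Scaling to total reads adds 0.21 to every log2 ratio, so the corneal call of Fn1 depends on the scaling. Postn, periostin, a matrix protein that binds Bmp1 and helps to activate lysyl oxidase, was the most limbal partner gene, with 125 and 1567 reads and a log2 ratio of 3.74 (3.48 to 4.02). Atp7a, which loads copper onto lysyl oxidases, was among the most corneal, with 283 and 171 reads and a ratio of −0.63 (−0.91 to −0.35). Eln, elastin, a main substrate of Lox and Loxl1, was the gene of this group without enough corneal reads, with 3 corneal and 924 limbal ones. Its naming came after its values were seen.

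Around the hydroxylases, Fkbp10, a chaperone that Plod2 needs for hydroxylation of the telopeptides, was higher in the limbus, with 181 and 555 reads and a log2 ratio of 1.71 (1.47 to 1.96), on the side of Plod2. Colgalt2, which adds galactose to hydroxylysine, had 352 and 95 reads and a ratio of −1.79 (−2.14 to −1.46). It was the most corneal partner gene among those with enough reads on both sides. Serpinh1, the collagen chaperone HSP47, had 1621 and 2944 reads and a ratio of 0.96 (0.87 to 1.04), and Creb3l1, a transcription factor that turns on collagen secretion genes, had 52 and 410 reads and a ratio of 3.07 (2.66 to 3.52). Tgm2, a transglutaminase that links proteins by another bond than lysyl oxidases do, was higher in the cornea, with 21674 and 10779 reads and a ratio of −0.91 (−0.95 to −0.88).

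**Figure D5:**
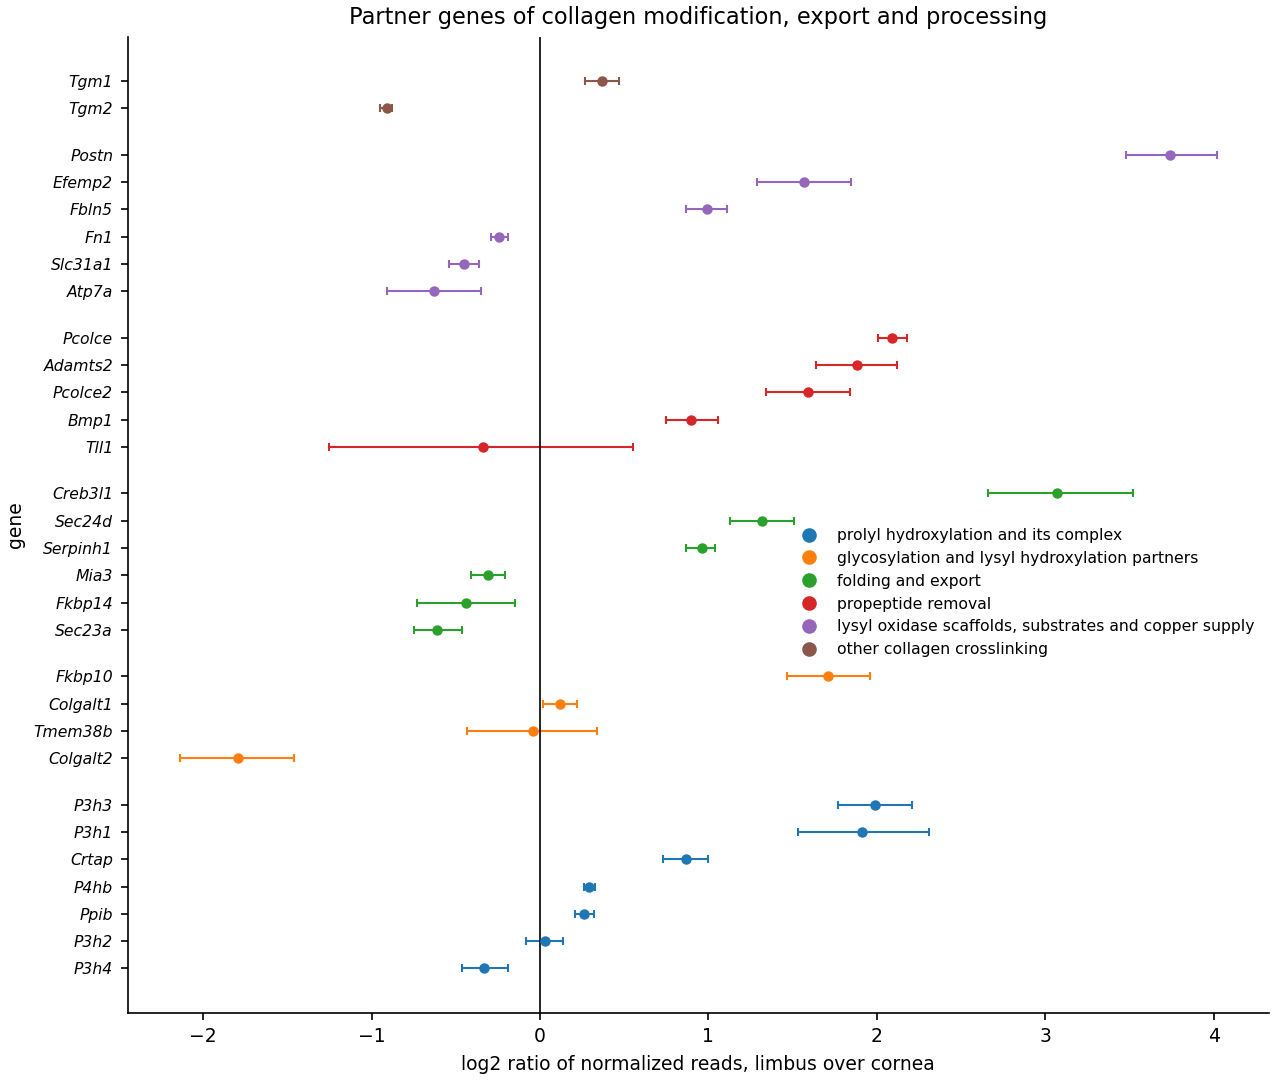
Log2 ratio of normalized reads, limbus over cornea (horizontal axis), of the 30 partner genes with over 3 reads on each side, colored and grouped by function, with exact 95% intervals. Postn and Creb3l1 lie farthest towards the limbus, at 3.74 and 3.07, and Colgalt2 farthest towards the cornea, at −1.79.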

How the data were processed

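Stranded total RNA libraries were made from pooled corneal buttons and limbal rims and sequenced on an Illumina NextSeq. The authors trimmed adaptors, used CLC Genomics Workbench 20 to map reads to GRCm38 (mm10) and normalized by the trimmed mean of M-values, per the study's methods. Whether counting used strand is not given in the sources used here. The authors deposited 1 table with, for each gene, a mean normalized signal (each library's reads over its size factor, averaged) and columns of their own comparison: a log2 fold change, its standard error, and raw and adjusted p-values. No column of a single sample was given, and p-values were not used.

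The table holds no counts, and reads per library were derived from it. Of 40904 rows, 23420 name a gene. The other 17484 hold no value. A mean of 0 is listed for 5978 genes. The other 17442 means are whole reads of 2 libraries, with 109 cornea reads worth 102 limbus reads. For 6143 genes the mean fits 1 pair of reads, for 11299 more than 1. For the latter, the deposited log2 fold change and standard error served only to choose the pair, through a re-built shrinkage model (prior variance 0.991), and are neither printed nor compared. All 11299 pairs met both to within 0.001 in sum, and for 11298 the next pair missed by more than 10 times as much. On data simulated with the same shrinkage model, all 17057 genes were found exactly. This checks the search for the pair, not whether that model is the one behind the deposited values. The accession column of the table was not used: of 18554 accessions found in RefSeq, 2 belong to the symbol in their row.

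The members and lists were chosen with earlier results of these data known. Named genes are the 10 enzymes, the 3 highest and 3 lowest ratios of the partner and of the collagen genes, 5 set partner genes, and the highest and lowest hypoxia-responsive gene. Ratios carry exact 95% limits (Clopper-Pearson, on the share of limbal reads), with exact conditional intervals of odds ratios for differences between genes, and exact Poisson limits for levels. Intervals of family shares come from the Poisson limits of the named gene with the other genes of the family held fixed. They are therefore narrower than the full counting error of a share. Without molecular identifiers, PCR reads cannot be counted as separate molecules. A fold counted as at least 2-fold when the lower library, if at 3 reads or fewer, was set to 3. Positions and exon unions are from GENCODE M21. Of the 10 enzymes, 2 overlap a protein-coding gene, 3 non-coding genes only and 5 none. Total-read and trimmed-mean scaling, a pseudocount of 1, filters on a mean of 10 and of 50, single-pair genes only and longest transcripts were tried. Python 3.11.15, numpy 2.4.6, scipy 1.17.1, pandas 2.3.3 and matplotlib 3.10.9 were used.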

Additional observations from a re-analysis of the deposited data

How the results depend on the processing

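With 1 library per tissue, leaving out a replicate was not possible, and depth limits Loxl4, Loxl3 and Plod2 most, with 19, 32 and 43 corneal reads. No paired analysis was possible because the table has no columns for single samples. Scaling to total reads added 0.21 to every log2 ratio and raised the share above 0 of the 13862 genes from 46.6% to 58.9%, and trimmed-mean scaling raised them by 0.02. Under total reads, P4ha1 was higher in the limbus beyond counting error at 0.36 (0.18 to 0.54), the summed lysyl hydroxylases at 0.31, the partner median was 1.07, and 6 partner genes in place of 9 were higher in the cornea. Under trimmed-mean scaling the summed lysyl hydroxylases were past counting error at 0.12. The partner median was 0.62 with a mean of at least 10 or of at least 50. Among genes whose mean allows 1 pair, 1 enzyme, Plod2, was left, which was higher in the limbus and at least 2-fold so, with 0 higher in the cornea, and 0 partner genes were past counting error on either side (partner median 2.10). The cause there is that few listed genes remain. With longest transcripts in place of exon unions, P4ha1 made up 72.5% of corneal and 51.9% of limbal alpha subunits, and Plod1 62.5% and 41.7% of lysyl hydroxylases. Set against the keratocyte genes in place of the collagens, an alternative chosen after seeing the data, Lox (0.65), Plod3 (0.70) and the summed prolyl 4-hydroxylases (0.50) turned from corneal to limbal, P4ha1 (0.09) and the summed lysyl hydroxylases (0.04) moved from corneal to within counting error, and Loxl2 (1.13) and Plod2 (1.03) moved past it. Against Col1a1 and Col1a2 alone none of these calls changed. The log2 ratios of normalized reads of the 10 enzymes and 3 families kept their direction under both other scalings and with a pseudocount of 1. A scaling adds the same amount to every log2 ratio, and a filter leaves a gene's own ratio as it is. Only ratios near 0 could therefore have turned.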

Other observations

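The prolyl 3-hydroxylases, which modify single prolines of collagen chains and were not among the 10 enzymes, also differed among themselves, and they are named here after their values were seen. P3h1 had 72 corneal and 254 limbal reads, a log2 ratio of 1.91 (1.53 to 2.31), and P3h3 had 219 and 814, a ratio of 1.99 (1.77 to 2.21). P3h2 had 1361 and 1299 reads, with a ratio of 0.03 (−0.08 to 0.14) that did not differ from 0 beyond counting error, and P3h4, a partner of the complex without known catalytic activity, had 1055 and 788, a ratio of −0.33 (−0.46 to −0.19). Crtap, the helper protein of P3h1, had 682 and 1163 reads and a ratio of 0.87 (0.73 to 1.0).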
